A study of Mus musculus with 20 samples.

Results

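Core clock and clock output genes were followed in abdominal skin of mice that differed in diet and in treatment with an inflammatory cream. The set held 10 genes chosen by name: the period genes Per1, Per2 and Per3, the REV-ERB genes Nr1d1 and Nr1d2, the repressor gene Ciart, the output genes Dbp and Tef, and the activator genes Clock and Npas2. They were chosen with earlier results of these data known, so their counts beside those of all genes are a description. For each gene the array feature that carried only that gene's symbol and had the highest mean over all arrays was used. This gave values for 9 of the 10 genes, among 22180 genes in all. The only feature of Per2 also carries the symbol of a predicted RIKEN gene, so no Per2 value is given.

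All mice were C57/B6 animals 9 weeks of age, housed free of specific pathogens with food and water at will. Their shaved abdominal skin received 62.5 mg of cream with 5% imiquimod (IMQ), or vehicle, each day for 5 days, and the skin was taken 24 h later. Imiquimod is an agonist of Toll-like receptor 7, and its repeated use on skin is a common mouse model of psoriasis-like inflammation. The 4 groups were mice on a high fat diet (HFD) given imiquimod (HFD-IMQ), mice on HFD given vehicle (HFD-vehicle), mice on control chow (CD) given imiquimod (CD-IMQ) and mice on CD given vehicle (CD-vehicle). Each group held 5 mice, with 1 array per mouse. The labels do not give the clock hour at which skin was taken, the light cycle, or how long the diet was fed. Time of collection bears directly on rhythmic genes, and its part in every difference given here was not tested. The model is limited to shaved abdominal skin of young mice of 1 strain background.

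The mammalian clock is a feedback loop of transcription. CLOCK, or its paralogue NPAS2, pairs with BMAL1 (gene Arntl) and activates genes that carry E-boxes, among them the Per and Cry genes, Nr1d1, Nr1d2, Ciart, Dbp and Tef. PER and CRY proteins and CIART (also called CHRONO) repress that pair, and the REV-ERB nuclear receptors repress Arntl and Npas2. DBP and TEF are PAR bZIP transcription factors that bind D-boxes and carry the rhythm to output genes, where NFIL3 opposes them. In skin the clock runs in keratinocytes, hair follicles and dermal cells, and Per1 is also induced acutely by cAMP signalling and by glucocorticoids.

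The promoters of 5 of the 9 measured genes held at least 1 clock motif, and these windows are shown because the motifs are the elements through which the loop acts. RefSeq start sites of build GRCm38.p6 gave 13 windows of 250 bases before the start for the 9 genes. Both strands were searched for the E-box CACGTG, the E-prime box CACGTT, the D-boxes TTATGTAA and TTACGTAA, the cores TAGGTCA and TGGGTCA of the REV-ERB element, and the cAMP response element TGACGTCA. None of the matches shown overlapped another. Motifs are in capitals, and each window is printed 5′ to 3′ on the strand of its gene. Ciart is at chr3:95882229-95882478 on the minus strand, Tef (the upstream of its 2 start sites) at chr15:81802423-81802672 on the plus strand, and Per1 (the upstream of its 2 start sites, within the annotated span of the gene) at chr11:69098699-69098948 on the plus strand. Per3 is at chr4:151044666-151044915 and Nr1d1 at chr11:98775378-98775627, both on the minus strand.
Ciart: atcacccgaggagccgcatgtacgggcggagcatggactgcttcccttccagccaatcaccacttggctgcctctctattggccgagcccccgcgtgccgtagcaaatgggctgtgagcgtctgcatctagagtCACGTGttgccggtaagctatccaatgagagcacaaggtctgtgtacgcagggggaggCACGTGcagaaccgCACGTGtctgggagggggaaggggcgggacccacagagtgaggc
Tef: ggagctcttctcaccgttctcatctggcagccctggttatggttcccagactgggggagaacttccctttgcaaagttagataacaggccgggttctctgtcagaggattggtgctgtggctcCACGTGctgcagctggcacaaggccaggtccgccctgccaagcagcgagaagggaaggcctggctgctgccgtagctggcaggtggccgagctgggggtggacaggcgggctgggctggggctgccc
Per1: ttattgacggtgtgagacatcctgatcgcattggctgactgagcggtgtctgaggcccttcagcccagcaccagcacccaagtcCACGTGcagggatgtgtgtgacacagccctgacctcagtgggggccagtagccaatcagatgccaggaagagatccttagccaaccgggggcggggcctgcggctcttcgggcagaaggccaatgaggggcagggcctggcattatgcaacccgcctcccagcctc
Per3: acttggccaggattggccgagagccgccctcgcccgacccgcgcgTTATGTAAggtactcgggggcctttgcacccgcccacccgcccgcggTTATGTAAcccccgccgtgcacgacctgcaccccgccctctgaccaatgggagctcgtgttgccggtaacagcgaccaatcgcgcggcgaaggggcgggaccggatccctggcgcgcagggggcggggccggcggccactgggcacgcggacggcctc
Nr1d1: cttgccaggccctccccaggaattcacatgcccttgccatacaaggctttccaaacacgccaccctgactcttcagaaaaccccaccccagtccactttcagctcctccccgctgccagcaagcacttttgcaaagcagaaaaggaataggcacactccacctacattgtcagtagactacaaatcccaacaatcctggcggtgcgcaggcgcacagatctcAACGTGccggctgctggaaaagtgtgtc

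Ciart held 3 E-boxes, which start 116, 58 and 44 bases before the start site. Tef held an E-box 127 bases before this start and another 138 bases before its downstream start, and Per1 held an E-box 166 bases before its upstream start. Per3 held a D-box at 205 and at 158 bases, and Nr1d1 an E-prime box, read as AACGTG on this strand, at 28 bases. An E-box occurred in 4 of the 13 clock gene windows and in 6.02% of the 32851 RefSeq windows of the same length. The E-prime box occurred in 3.85% of all windows, the D-box TTATGTAA in 0.819% and TTACGTAA in 0.113%. The REV-ERB cores TAGGTCA and TGGGTCA occurred in 2.23% and 3.24% of all windows and the cAMP response element in 1.55%, with 0 of the 13 clock gene windows for each. These matches describe letters in a short window, and the absence of a match covers only that window. The share of all genes with any of these motifs was not computed, so the 5 of 9 has no background beside it.

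Values were log2 expression values. Array medians lay between 2.86 and 3.04, so Npas2, with group means between 2.94 and 3.29, was measured close to background, as was Tef at 3.75 to 4.13 to a lesser degree. Standard errors (SE) of a log2 difference between 2 groups had a median of 0.136 over all genes. The tissue label was checked on epidermal genes: Krt14 averaged 10.2, 9.23, 10.2 and 8.21 in HFD-IMQ, HFD-vehicle, CD-IMQ and CD-vehicle skin, and the lowest Krt10 value on any array was 10.6. Of the squared scatter among a group's arrays, summed over genes, HFD-IMQ 4 made up 30.0% in its group, HFD-vehicle 3 made up 42.8% and CD-vehicle 3 made up 28.4%. A gene was called changed at a Benjamini-Hochberg adjusted p below 0.05 in limma, over the 22180 genes of a comparison. In bulk skin, fewer cells of a type and less RNA per cell cannot be told apart.

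Per1, a period gene that also answers acute stimuli, was lower in CD-IMQ than in CD-vehicle skin and lower in HFD-vehicle than in CD-vehicle skin. Its values were 6.63, 6.58, 5.94, 6.12 and 6.25 in HFD-IMQ skin and 6.18, 6.15, 6.53, 6.19 and 6.22 in HFD-vehicle skin. They were 6.18, 6.36, 6.25, 6.05 and 6.62 in CD-IMQ skin and 7.53, 7.47, 7.20, 6.86 and 6.99 in CD-vehicle skin. All 5 CD-vehicle mice lay above every mouse of the other groups, which overlapped each other. Group means were 6.30 ± 0.30, 6.25 ± 0.16, 6.29 ± 0.21 and 7.21 ± 0.29 in HFD-IMQ, HFD-vehicle, CD-IMQ and CD-vehicle skin (SD, n = 5 each). The difference between CD-IMQ and CD-vehicle skin was log2 -0.92 ± 0.15 (SE), or 1.89-fold lower, with an adjusted p of 0.000298. The difference between HFD-vehicle and CD-vehicle skin was -0.96 ± 0.15, or 1.94-fold lower, with an adjusted p of 0.00120. Both comparisons use the same CD-vehicle arrays, so their likeness is not independent. In mice on HFD the imiquimod difference was 0.051 ± 0.15, with a 95% interval of -0.26 to 0.36.

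Per3, the remaining measured period gene, had a narrower range. It measured 4.37, 4.73, 4.96, 4.96 and 4.74 in HFD-IMQ skin and 4.60, 4.54, 4.59, 4.87 and 4.65 in HFD-vehicle skin. It measured 4.63, 4.64, 4.62, 4.61 and 4.73 in CD-IMQ skin and 5.02, 5.16, 5.35, 5.07 and 5.16 in CD-vehicle skin. As with Per1, every CD-vehicle value lay above every other value. Per3 was lower in both comparisons, with a difference of -0.51 ± 0.11 for CD-IMQ against CD-vehicle skin (adjusted p = 0.00344) and of -0.50 ± 0.11 for HFD-vehicle against CD-vehicle skin (adjusted p = 0.0147). The second of these calls was lost without CD-vehicle 3 (adjusted p = 0.0574). Between HFD-IMQ and HFD-vehicle skin the difference was 0.10 ± 0.11.

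**Figure D1:**
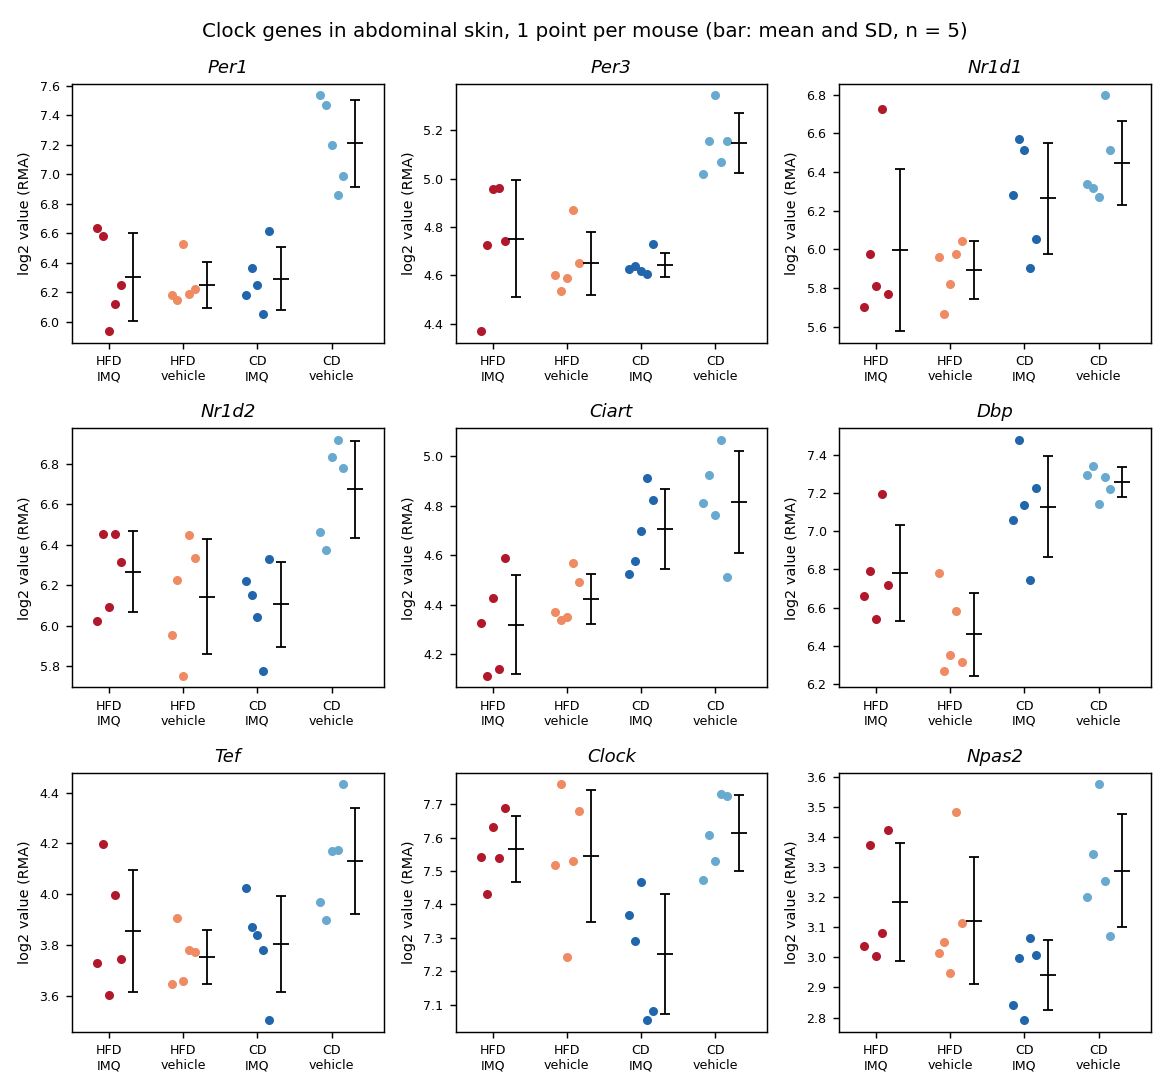
Log2 values of the 9 measured clock genes by group, with 1 point per mouse and the mean and SD (n = 5) beside them, each panel on its own axis. In Per1 and Per3 all 5 CD-vehicle mice lie above the mice of the other 3 groups, whereas in Dbp and Ciart the groups on HFD lie lower and overlap those on CD in part.

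Nr1d2, which encodes REV-ERB beta, was lower in CD-IMQ skin. Its 5 values were 6.02, 6.45, 6.09, 6.46 and 6.31 in HFD-IMQ skin and 5.96, 6.23, 5.76, 6.45 and 6.34 in HFD-vehicle skin. They were 6.22, 6.15, 6.04, 5.78 and 6.33 in CD-IMQ skin and 6.46, 6.38, 6.83, 6.92 and 6.78 in CD-vehicle skin. The CD-IMQ values all lay below the CD-vehicle values, while HFD-vehicle and CD-vehicle overlapped. The difference between CD-IMQ and CD-vehicle skin was -0.57 ± 0.15 (adjusted p = 0.0127). Between HFD-vehicle and CD-vehicle skin it was -0.53 ± 0.15, which did not pass (adjusted p = 0.0563), though it passed when dim genes were removed before the fit (adjusted p = 0.0364) or without CD-vehicle 2 or HFD-vehicle 4 or 5.

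Nr1d1, which encodes REV-ERB alpha, passed in none of the 4 comparisons of 2 groups. Group means were 5.998 ± 0.42, 5.89 ± 0.15, 6.26 ± 0.29 and 6.45 ± 0.22 in HFD-IMQ, HFD-vehicle, CD-IMQ and CD-vehicle skin (SD, n = 5 each). The highest HFD-vehicle value, 6.05, lay below the lowest CD-vehicle value, 6.27. That difference was -0.55 ± 0.17 with an adjusted p of 0.0902, and it passed only when HFD-IMQ 4, which gave 6.73 where the other HFD-IMQ mice gave 5.70 to 5.98, was left out (adjusted p = 0.0277) or arrays were weighted by quality (adjusted p = 0.0409). Over the 8 alternatives to the processing the adjusted p ran between 0.0409 and 0.148.

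Ciart, the clock repressor gene with 3 E-boxes in its promoter window, was lower with HFD when both creams were averaged. It measured 4.33, 4.11, 4.43, 4.14 and 4.59 in HFD-IMQ skin and 4.52, 4.58, 4.70, 4.91 and 4.82 in CD-IMQ skin. It measured 4.37, 4.34, 4.35, 4.57 and 4.49 in HFD-vehicle skin and 4.81, 4.92, 4.76, 5.07 and 4.51 in CD-vehicle skin. Within each cream the highest HFD mice reached the level of the lowest CD mice. Over both creams Ciart averaged 4.37 ± 0.16 in mice on HFD and 4.76 ± 0.18 in mice on CD (SD, n = 10 each), a difference of -0.39 ± 0.083 (SE; adjusted p = 0.0348). The call held in 9 of the 20 fits that each left out 1 array, where the adjusted p reached 0.0737, and it was lost on leaving out CD-vehicle 1, 2 or 4, CD-IMQ 3, 4 or 5, HFD-vehicle 1 or 2, or HFD-IMQ 1, 2 or 3, and with a trended robust prior in limma (adjusted p = 0.0509). With imiquimod against vehicle, Ciart differed by -0.10 ± 0.12 in mice on HFD and by -0.11 ± 0.12 in mice on CD.

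Dbp, a clock output gene, was lower with HFD in vehicle-treated skin and with both creams averaged. It measured 6.66, 6.79, 6.54, 7.20 and 6.72 in HFD-IMQ skin and 7.06, 7.48, 7.14, 6.75 and 7.22 in CD-IMQ skin. It measured 6.78, 6.27, 6.35, 6.58 and 6.32 in HFD-vehicle skin and 7.29, 7.34, 7.14, 7.29 and 7.22 in CD-vehicle skin. The vehicle groups did not overlap, and in imiquimod-treated skin HFD-IMQ 4 was high and CD-IMQ 4 was low within their groups. The difference between HFD-vehicle and CD-vehicle skin was -0.79 ± 0.14, or 1.73-fold lower (adjusted p = 0.00242). Between HFD-IMQ and CD-IMQ skin it was -0.35 ± 0.14, with a 95% interval of -0.63 to -0.066, which did not pass over all genes (adjusted p = 0.393). Averaged over both creams Dbp was 6.62 ± 0.28 in mice on HFD and 7.19 ± 0.20 in mice on CD (SD, n = 10 each), a difference of -0.57 ± 0.096 (SE; adjusted p = 0.00748) that passed in each of the 20 fits without 1 array. Imiquimod differed from vehicle by 0.32 ± 0.14 in mice on HFD (adjusted p = 0.211) and by -0.13 ± 0.14 in mice on CD (adjusted p = 0.626).

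Tef, the PAR bZIP relative of Dbp, passed in no comparison. Its means were 3.85 ± 0.24, 3.75 ± 0.11, 3.80 ± 0.19 and 4.13 ± 0.21 in HFD-IMQ, HFD-vehicle, CD-IMQ and CD-vehicle skin (SD, n = 5 each). It differed by -0.38 ± 0.13 between HFD-vehicle and CD-vehicle skin (adjusted p = 0.125) and by -0.33 ± 0.13 between CD-IMQ and CD-vehicle skin (adjusted p = 0.102). Tef had a second feature with a mean of 1.87, below the array medians, which was not used.

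Clock, the activator itself, was lower in CD-IMQ than in CD-vehicle skin. It measured 7.54, 7.43, 7.63, 7.54 and 7.69 in HFD-IMQ skin and 7.52, 7.76, 7.24, 7.53 and 7.68 in HFD-vehicle skin. It measured 7.37, 7.29, 7.47, 7.05 and 7.08 in CD-IMQ skin and 7.47, 7.61, 7.53, 7.73 and 7.72 in CD-vehicle skin. The highest CD-IMQ mouse and the lowest CD-vehicle mouse nearly met. The difference was -0.36 ± 0.11 (adjusted p = 0.0341), against 0.020 ± 0.11 between HFD-IMQ and HFD-vehicle skin. The Clock call was lost on leaving out CD-IMQ 4 or 5 or CD-vehicle 2, 4 or 5 (highest adjusted p = 0.0973), after a second quantile normalization (0.0722) and with only these 2 groups in the fit (0.0632), and its adjusted p ran between 0.0188 and 0.0722 over the 8 alternatives.

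Npas2, the paralogue of Clock, lay near background, at 2.94 ± 0.12 in CD-IMQ and 3.29 ± 0.19 in CD-vehicle skin (SD, n = 5 each). All CD-IMQ values, 2.79 to 3.06, lay below all CD-vehicle values, 3.07 to 3.57, yet the difference of -0.35 ± 0.12 did not pass (adjusted p = 0.0679). It passed after a second quantile normalization (adjusted p = 0.0449) and without HFD-vehicle 4. Npas2 averaged 3.18 ± 0.20 in HFD-IMQ and 3.12 ± 0.21 in HFD-vehicle skin.

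Counted over the 9 genes, 4 (Per1, Per3, Nr1d2 and Clock) were lower and 0 higher with imiquimod in mice on CD. Among all 22180 genes 7.02% were called lower and 3.91% higher in that comparison. In 5 of the 9 clock genes the CD-IMQ and CD-vehicle values did not overlap, against 8.89% of all genes. The median log2 difference of the 9 genes was -0.35, and that of all genes was 0.016. All 9 differences were negative, from -0.92 to -0.11.

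In mice on HFD, imiquimod changed 0 of the 9 genes, where 3.65% of all genes were called higher and 2.24% lower. At an unadjusted p below 0.05 in limma 1 of the 9, Dbp, was reached, against 3697 of the 22180 genes in all. The values of HFD-IMQ and HFD-vehicle mice overlapped in all 9, whereas 6.06% of all genes did not overlap. The median difference of the 9 was 0.10, within a range of -0.10 to 0.32.

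In vehicle-treated skin 3 of the 9 genes (Per1, Dbp and Per3) were lower and 0 higher with HFD, against 0.956% of all genes lower and 1.22% higher. Non-overlapping values were found in 4 of the 9, the 3 called genes and Nr1d1, against 3.94% of all genes. The median difference was -0.50 and all 9 were negative, down to -0.067 for Clock. Because HFD-vehicle and CD-IMQ skin were both set against the same 5 CD-vehicle arrays, the CD-vehicle values enter both counts.

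In imiquimod-treated skin diet changed 0 of the 9 genes, and 0% of all genes were called higher and 0% lower. At an unadjusted p below 0.05 in limma, 3 of the 9 clock genes and 2289 of the 22180 genes in all were reached. The 3 were Ciart at -0.39 ± 0.12 (adjusted p = 0.310), Dbp and Clock at 0.31 ± 0.11 (adjusted p = 0.351). The HFD-IMQ and CD-IMQ values overlapped in all 9 clock genes, and 1.67% of all genes did not overlap.

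**Figure D2:**
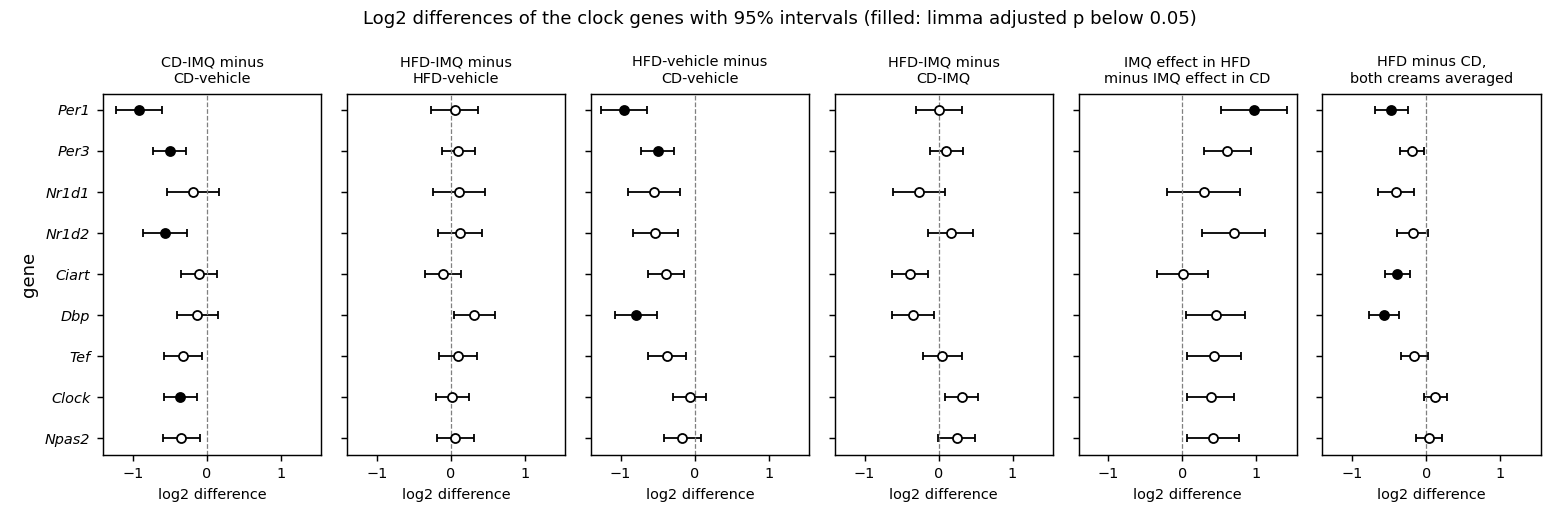
Log2 differences of the 9 clock genes with 95% intervals from limma, in 6 panels for the named comparisons, with filled circles at an adjusted p below 0.05. Per1 is filled in 4 of the 6 panels and Dbp in the 2 that set HFD against CD in vehicle-treated skin or over both creams, while the panels of HFD-IMQ against HFD-vehicle and against CD-IMQ hold no filled circle.

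The interaction, the imiquimod difference in mice on HFD minus that in mice on CD, passed for 1 of the 9 genes, Per1. Among all genes 0.473% were called with a higher and 0.189% with a lower term. The Per1 term was 0.97 ± 0.21 (adjusted p = 0.0370). It passed in 9 of the 20 fits without 1 array, with adjusted p between 0.0189 and 0.0828, and was lost on leaving out CD-vehicle 1 or 3, CD-IMQ 1, 3 or 4, HFD-vehicle 1, 2 or 4, or HFD-IMQ 1, 2 or 5. After a second quantile normalization it was 0.87 (adjusted p = 0.0649), and over the 7 alternatives its adjusted p ran between 0.0238 and 0.0649. The terms of Nr1d2 (0.69 ± 0.21, adjusted p = 0.102) and Per3 (0.61 ± 0.15, adjusted p = 0.0673) did not pass. The Per3 term passed with arrays centred on their medians (adjusted p = 0.0463), with dim genes removed (0.0415), and without HFD-vehicle 4 or HFD-IMQ 1. All 9 terms were above 0, with a median of 0.43, and each contains the CD-vehicle arrays with a positive sign.

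With both diets averaged, 1 of the 9 genes, Per1 at -0.43 ± 0.11 (adjusted p = 0.00742), was lower with imiquimod and 0 were higher. That share is close to the 7.06% lower and 5.48% higher among all genes. With both creams averaged, 3 of the 9 genes, Dbp, Ciart and Per1, were lower and 0 higher with HFD, against 0.158% of all genes lower and 0.252% higher. Per1 differed with diet by -0.96 ± 0.15 in vehicle-treated skin and by 0.011 ± 0.15 in imiquimod-treated skin (adjusted p = 0.989 for the second). The Per1 difference with both creams averaged was -0.47 ± 0.11 (adjusted p = 0.0489). It passed in only 4 of the 20 fits without 1 array, those that left out CD-vehicle 4, HFD-vehicle 3, or HFD-IMQ 1 or 2, with adjusted p up to 0.0988 in the others, and not with arrays centred on their medians (adjusted p = 0.0939) or a trended robust prior (0.0557). Nr1d1 differed by -0.41 ± 0.12 (adjusted p = 0.178), and passed without HFD-IMQ 4 (0.0152) or with arrays weighted by quality (0.0499).

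The other core clock genes were described from a list of 17, of which 14 had a feature of their own. In CD-IMQ against CD-vehicle skin 3 of the 14 were lower and 0 higher: Cry2, a cryptochrome repressor, at -0.94 ± 0.16 (adjusted p = 0.000347), Bhlhe40, an E-box repressor also known as DEC1, at -0.63 ± 0.13 (adjusted p = 0.00193), and Btrc, a subunit of the ubiquitin ligase that acts on PER proteins, at -0.53 ± 0.17 (adjusted p = 0.0389). The Btrc call was lost without CD-IMQ 4 or 5 or CD-vehicle 2, 4 or 5 (adjusted p up to 0.115), and the count of 3 became 2 under either of these scalings: a second quantile normalization, or arrays centred on their medians. Among all genes 7.02% were called lower in CD-IMQ against CD-vehicle skin, and the median of the 14 was -0.13. In HFD-IMQ against HFD-vehicle skin 0 of the 14 changed, where 3.65% of all genes were called higher and 2.24% lower. In HFD-vehicle against CD-vehicle skin Cry2 (-0.80 ± 0.16, adjusted p = 0.00704) and Bhlhe40 (-0.58 ± 0.13, adjusted p = 0.0168) were lower, the second not so without CD-vehicle 3 (adjusted p = 0.0651). There the median of the 14 was -0.043, with 10 differences below 0 and 4 above. Among all genes 0.956% were called lower and 1.22% higher. With both creams averaged Bhlhe41, the DEC2 paralogue, was lower with HFD at -0.70 ± 0.15 (adjusted p = 0.0317), a call lost without CD-vehicle 1 or 5, CD-IMQ 1 or 4, HFD-vehicle 1, 2 or 4, or HFD-IMQ 1, 3 or 5 (adjusted p up to 0.0737) and after each array was centred on its median. With both diets averaged 4 of the 14 were lower with imiquimod, Cry2 (-0.53 ± 0.11, adjusted p = 0.00201), Bhlhe41 (-0.46 ± 0.15), Bhlhe40 (-0.30 ± 0.090) and Rora (-0.23 ± 0.072), and this count became 1 or 2 in 12 of the 20 fits without 1 array, with 1 left without CD-vehicle 1 or HFD-vehicle 2. It was also 1 after a second quantile normalization and 2 with arrays centred on their medians. Over all genes 7.06% were called lower with imiquimod with both diets averaged, and 0.158% lower with HFD with both creams averaged. Diet in imiquimod-treated skin and the interaction gave 0 calls. The interaction terms of the 14 had a median of 0.036, with 7 below 0 and 7 above.

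Arntl, the partner of CLOCK, was higher with HFD in vehicle-treated skin. It measured 4.62, 4.50, 4.67, 4.44 and 4.63 in HFD-IMQ skin and 4.63, 4.59, 4.42, 4.23 and 4.76 in CD-IMQ skin. It measured 4.89, 4.83, 5.41, 4.46 and 4.67 in HFD-vehicle skin and 4.26, 4.39, 3.62, 4.43 and 4.45 in CD-vehicle skin. All 5 HFD-vehicle values lay above the CD-vehicle values, though the nearest mice, at 4.46 and 4.45, almost met, and HFD-vehicle 3 and CD-vehicle 3 were the extremes. Arntl was higher by 0.62 ± 0.16 in HFD-vehicle than in CD-vehicle skin (adjusted p = 0.0463). The call held in 6 of the 20 fits without 1 array, those without CD-vehicle 2 or 4, CD-IMQ 4, HFD-vehicle 4 or 5, or HFD-IMQ 4 (adjusted p up to 0.145 in the others), and was lost after each array was centred on its median. Between CD-IMQ and CD-vehicle skin Arntl differed by 0.29 ± 0.16 (adjusted p = 0.286) and between HFD-IMQ and HFD-vehicle skin by -0.28 ± 0.16 (adjusted p = 0.427). None of its relations with the 9 clock genes within groups passed. Over 20 arrays, after subtraction of group means, the closest was with Npas2 (Pearson r = -0.61, permutation p = 0.0119, adjusted p = 0.107 over 9 relations), for which Spearman's rho was -0.44 (permutation p = 0.0618, adjusted p = 0.557). Without HFD-vehicle 3 and CD-vehicle 3 that r was -0.47.

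Cry1, a cryptochrome repressor, differed by 0.031 ± 0.14 between HFD-vehicle and CD-vehicle skin and by -0.050 ± 0.14 between CD-IMQ and CD-vehicle skin, with adjusted p of 0.954 and 0.878. Nfil3, which opposes DBP at D-boxes, differed by 0.10 ± 0.21 and by -0.36 ± 0.21 in the same comparisons (adjusted p = 0.889 and 0.319). Hlf, the other PAR bZIP gene, differed by -0.23 ± 0.12 and by -0.070 ± 0.12 (adjusted p = 0.400 and 0.790). None of these 3 genes passed in any of the 7 comparisons.

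**Figure D3:**
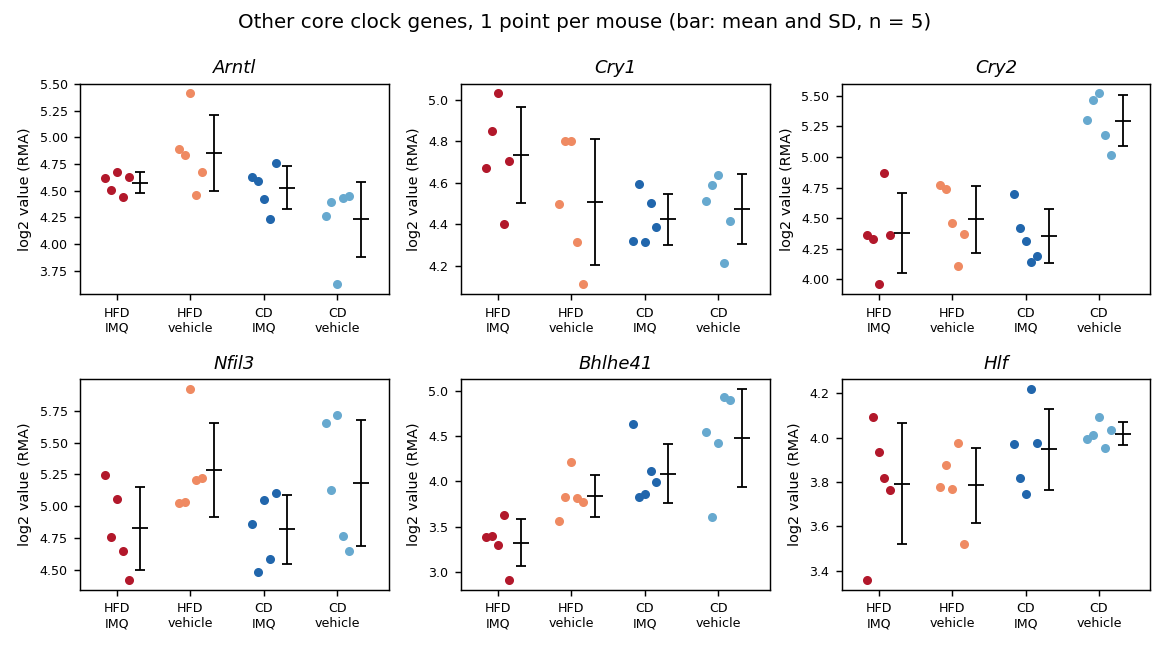
Log2 values of 6 further core clock genes by group, 1 point per mouse with the mean and SD (n = 5), each panel on its own axis. Cry2 has all CD-vehicle mice above the other 3 groups, Arntl has the HFD-vehicle mice above the CD-vehicle mice, and in Cry1, Nfil3 and Hlf the groups overlap.

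Further clock-controlled output genes were taken from a list of 13, of which 12 were measured. In CD-IMQ against CD-vehicle skin 5 of the 12 were lower and 0 higher, with the largest differences in Coq10b, a coenzyme Q binding protein gene (-0.95 ± 0.18, adjusted p = 0.00102), Klf9, a Krüppel-like factor gene (-0.87 ± 0.14, adjusted p = 0.000177), Wee1, a kinase that restrains mitotic entry (-0.84 ± 0.18, adjusted p = 0.00274), and Nampt, the rate-limiting enzyme of NAD salvage (-0.55 ± 0.15, adjusted p = 0.0215). The count of 5 became 3 without CD-vehicle 3. Among all genes 7.02% were called lower there. In HFD-vehicle against CD-vehicle skin 4 of the 12 were lower, Coq10b (-0.92 ± 0.18), Wee1 (-0.88 ± 0.18), Tsc22d3 (-0.62 ± 0.14) and Klf9 (-0.56 ± 0.14), with adjusted p between 0.00627 and 0.0302, and the count became 2 without CD-vehicle 1 or 3 or HFD-vehicle 1 or 3. Over all genes 0.956% were called lower in HFD-vehicle against CD-vehicle skin. In HFD-IMQ against HFD-vehicle skin Klf10, another Krüppel-like factor gene, alone was higher (0.61 ± 0.15, adjusted p = 0.0128), where 3.65% of all genes were called higher.

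Klf10 averaged 6.57 ± 0.23 in HFD-IMQ and 5.96 ± 0.22 in HFD-vehicle skin, and 6.08 ± 0.30 in CD-IMQ and 5.76 ± 0.22 in CD-vehicle skin (SD, n = 5 each). Diet in imiquimod-treated skin changed 0 of the 12 outputs. The interaction was called above 0 in 4 of them, Coq10b (1.11 ± 0.25), Wee1 (1.08 ± 0.25), Nampt (0.93 ± 0.21) and Klf9 (0.88 ± 0.19), with adjusted p between 0.0346 and 0.0460. Among all genes 0.473% had such a call. No output was called for the interaction after a second quantile normalization, nor without CD-vehicle 1 or 3, CD-IMQ 1, 4 or 5, HFD-vehicle 1 or 2, or HFD-IMQ 2, and 1 or 2 were called without CD-vehicle 5, CD-IMQ 3, HFD-vehicle 3, or HFD-IMQ 1, 4 or 5. With both diets averaged Klf10 was higher (0.47 ± 0.11) and Klf9 (-0.43 ± 0.096) and Coq10b (-0.39 ± 0.12) were lower with imiquimod, though the Coq10b call held in only 6 of the 20 fits without 1 array and the count of lower genes became 1 after a second quantile normalization. Over both diets 7.06% of all genes were called lower and 5.48% higher with imiquimod. With both creams averaged 0 of the 12 changed with diet.

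Immediate-early genes, whose transcription is switched on rapidly by growth factors, stress and wounding, were called in the same comparisons as Per1. Of 12 such genes 12 were lower in CD-IMQ than in CD-vehicle skin (median -2.39, led by Ccn1 at -3.52 ± 0.30, Egr1 at -3.31 ± 0.35 and Fos at -3.17 ± 0.41) and 11 were lower in HFD-vehicle than in CD-vehicle skin (median -2.29, led by Nr4a1 at -3.23 ± 0.39, Ccn1 at -2.99 ± 0.30 and Fos at -2.58 ± 0.41). Over all genes 7.02% were called lower in the first of these comparisons and 0.956% in the second. In HFD-IMQ against HFD-vehicle and HFD-IMQ against CD-IMQ skin 0 of the 12 were called, with 1 called lower in the HFD pair without CD-vehicle 4. Over all genes 3.65% were called higher and 2.24% lower in the HFD pair, and 0% either way in HFD-IMQ against CD-IMQ skin. The mean of the 12 genes on each array lay between 4.85 and 5.80 in HFD-IMQ, 5.01 and 5.66 in HFD-vehicle, 5.02 and 5.48 in CD-IMQ, and 6.46 and 8.24 in CD-vehicle skin. The interaction was called above 0 for 10 of the 12 (median 2.43). With both diets averaged 12 were lower with imiquimod (median -1.08), and with both creams averaged 6 were lower with HFD (median -0.98). The shares of all genes so called in these 3 comparisons were 0.473%, 7.06% and 0.158%. Their part in the clock gene differences was not tested.

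**Figure D4:**
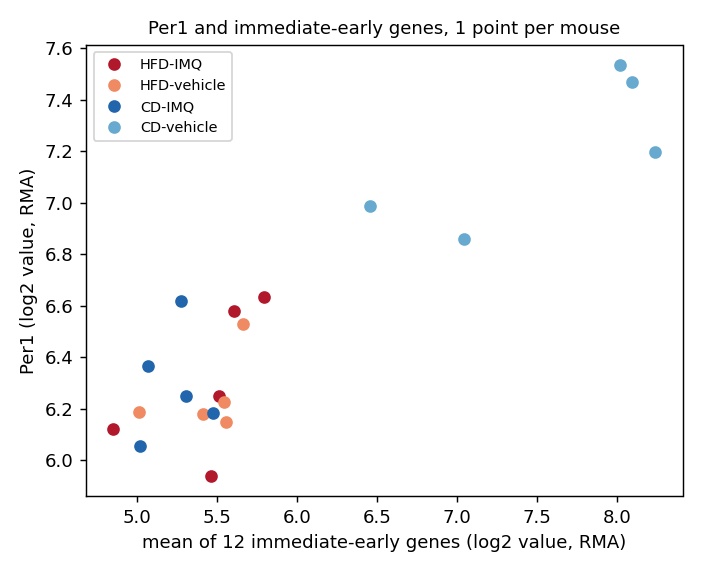
Per1 (vertical axis, log2 value) against the mean of 12 immediate-early genes (horizontal axis, log2 value), with 1 point per mouse coloured by group. The 5 CD-vehicle mice lie apart at the upper right, with immediate-early means of 6.46 to 8.24, and the other 15 mice lie between 4.85 and 5.80.

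Glucocorticoid-responsive genes were followed because Per1 is itself among the targets of the receptor, and 2 of the 11, Klf9 and Tsc22d3, are also on the output list above. In CD-IMQ against CD-vehicle skin 5 of the 11 were lower, led by Errfi1, an inhibitor of EGF receptor signalling (-2.21 ± 0.26), and Cebpd, a bZIP transcription factor gene (-1.47 ± 0.17), followed by Klf9. The count became 8 without CD-vehicle 5 and was otherwise within 1.5 times of 5. The median of the 11 was -0.50, with 11 differences below 0, and 7.02% of all genes were called lower. In HFD-vehicle against CD-vehicle skin 4 were lower, led by Errfi1 (-2.15 ± 0.26), Cebpd (-1.61 ± 0.17) and Tsc22d3, and the count became 2 without HFD-vehicle 1 or CD-vehicle 1 or 3. The median of the 11 there was -0.19, with 7 differences below 0 and 4 above, and 0.956% of all genes were called lower. Imiquimod in mice on HFD, and diet in imiquimod-treated skin, changed 0 of the 11, though Pdk4, a kinase gene of fuel choice, was called higher in both without CD-IMQ 2 or HFD-IMQ 5, and in the diet comparison without HFD-IMQ 4. The interaction was called above 0 for 3, Errfi1 (2.07 ± 0.37), Cebpd (1.80 ± 0.24) and Klf9, against 0.473% of all genes. The Klf9 interaction call held in only 10 of the 20 fits without 1 array. With both diets averaged 5 were lower with imiquimod, led by Errfi1 (-1.18 ± 0.18), Cebpd (-0.58 ± 0.12) and Zbtb16 (-0.45 ± 0.12). With both creams averaged 2 were lower with HFD, among them Errfi1 (-1.12 ± 0.18), and 2 were higher, Angptl4 (0.99 ± 0.21) and Pdk4 (0.77 ± 0.16), though 0 were higher in 11 of the 20 fits without 1 array. Over all genes 7.06% were called lower with imiquimod with both diets averaged. With both creams averaged 0.158% of all genes were called lower and 0.252% higher with HFD.

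Cell type markers differed between groups. The mean of 7 anagen hair follicle genes ranged from 6.87 to 9.18 in HFD-vehicle and from 2.66 to 5.83 in CD-vehicle skin, and 7 of 7 were called higher in HFD-vehicle skin. It ranged from 2.68 to 4.34 in HFD-IMQ skin, where 7 of 7 were lower than in HFD-vehicle skin, and from 2.66 to 3.28 in CD-IMQ skin, where 4 of 7 were lower than in CD-vehicle skin. The mean of 5 epidermal genes ranged from 10.3 to 10.7 in CD-IMQ and from 8.36 to 9.69 in CD-vehicle skin, with 4 of 5 called higher in CD-IMQ skin, and 2 of 5 were higher in HFD-vehicle than in CD-vehicle skin. The mean of 6 macrophage and neutrophil genes ranged from 6.86 to 7.22 in CD-IMQ and from 5.93 to 6.23 in CD-vehicle skin, with 5 of 6 called higher. In HFD-IMQ against HFD-vehicle skin 6 of these 6 and 2 of 5 epidermal genes were called higher. In that pair 1 of 5 fibroblast and 1 of 6 adipocyte genes were called lower, and 0 of 6 skeletal muscle genes were called. In HFD-vehicle against CD-vehicle skin 0 of the 6 macrophage and neutrophil genes were called. There 0 of 5 fibroblast, 0 of 6 adipocyte and 0 of 6 skeletal muscle genes were called either. Adipocyte genes were called lower in CD-IMQ skin for 1 of 6 and fibroblast genes for 4 of 5, while skeletal muscle genes were called for 0 of 6. Among all genes 3.91% were called higher and 7.02% lower in CD-IMQ against CD-vehicle skin. These shares were 3.65% and 2.24% in HFD-IMQ against HFD-vehicle skin, and 1.22% and 0.956% in HFD-vehicle against CD-vehicle skin. Of the marker set means, that of the hair follicle alone fell as low as the array medians on some arrays. The part of cell composition in the clock gene differences was not tested.

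Within groups the clock genes showed little common movement. After subtraction of group means, the 36 pairs among the 9 genes had Pearson correlations between -0.65 (Ciart with Tef) and 0.70 (Dbp with Nr1d1) over the 20 arrays, with a median of 0.025. Of the 36, 21 were positive and 15 negative. The correlation of Dbp with Nr1d1 was not recomputed without HFD-IMQ 4, the highest mouse of its group in both genes (7.20 and 6.73). The genes whose residual pattern was most like that of Dbp among 19392 named genes were St3gal4 (r = 0.85), Rbms2 (0.84), Dym (0.84), Akr1b10 (0.83), Hoxc8 (0.83), Igkv4-59 (0.82), Lmf1 (0.81) and Khdrbs3 (0.81), and the least alike were Btbd11 (-0.84), Col4a6 (-0.81), Dffb (-0.80) and Olfr222 (-0.76). Nr1d1 ranked 83 in that order, and no other clock gene came higher. All these values share the same 20 arrays and are given as a description.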

How the data were processed

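Expression was measured in abdominal skin of 20 mice, 5 per group, on Affymetrix arrays. Per the labels' protocols, 300 ng of Trizol-extracted RNA was labelled with the GeneChip WT PLUS kit. The deposited values are log2 values made by the authors with RMA (robust multi-array averaging) in affy, per the submitters' processing notes, which give no versions. The sources used here give no scan batches. Microarrays have no read depth, and the number of arrays limits the precision.

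Of 41345 features, 23521 carried 1 gene symbol, 1814 several and 16010 none, from GEO's platform annotation. Where several single-symbol features shared a gene, the brightest on average was kept, which left 22180 genes and no filter on dim genes. Groups came from the labels. A model of 4 group means was fitted to the 20 arrays in R 4.3.3 (limma 3.58.1, lmFit and eBayes) for 7 comparisons, with Benjamini-Hochberg adjustment over all genes and calls below 0.05. The script was tested on simulated data. Same-numbered arrays were not treated as pairs: of 30 such pairs across groups 4 had residual correlations above 0.1 (range -0.217 to 0.320). Relations with Arntl used 100000 permutations, two-sided. Promoter windows came from RefSeq (GRCm38.p6), matched by symbol for the 9 measured genes. Figures used Python 3.11.15 and matplotlib 3.10.9.

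The members and lists were chosen with earlier results of these data known. Named genes were the clock genes in every comparison, Arntl, Cry1, Nfil3 and Hlf, the called genes of the other clock lists with the 4 largest changes, the 3 largest of each side list, and the 8 most and 4 least alike to Dbp. Listed genes without a feature of their own were not analysed here. The replicates are separate mice per the labels. Alternatives were scalings, weights, filters, thresholds, a replicate block and each array left out; the leave-one-out and scaling runs of the other lists were added after seeing the data.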

Additional observations from a re-analysis of the deposited data

Results flagged for a closer look

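Among the 36 sets of 5 mice formed by the 9 clock genes and the 4 groups, 3 held a mouse far from the others by Dixon's criterion, where chance gives about 1 in 20. Per1 was 6.53 in HFD-vehicle 3, with the nearest mouse of its group at 6.22. Per3 was 4.73 in CD-IMQ 5, with the nearest mouse at 4.64. Nr1d1 was 6.73 in HFD-IMQ 4, with the nearest mouse at 5.98, and HFD-IMQ 4 was also the highest Dbp mouse of its group at 7.20.

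The imiquimod difference in Per1 differed between the diets by log2 0.97, the value of the interaction term. Per1 averaged 6.30 in HFD-IMQ and 6.25 in HFD-vehicle skin, and 6.29 in CD-IMQ and 7.21 in CD-vehicle skin. In this gene the CD-vehicle mice alone stood apart.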

How the results depend on the processing

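Over 28 alternatives the 1730 recomputed values of single clock genes stayed on their side of the threshold in 1662 cases, of which 31, called in neither setting, changed sign. The others lost a call in 53 cases and gained one in 15, and no called value changed sign. Of the 9 clock genes, 4 were called for CD-IMQ against CD-vehicle (3 with only these 2 groups in the fit or with the replicate number as a block; 2 at an adjusted p below 0.01; 3 to 5 with 1 array left out), and 3 for HFD-vehicle against CD-vehicle (4 with array weights or with dim genes removed; 2 at 0.01; 2 to 4 with 1 array left out). The interaction was called for 1, for 0 after a second quantile normalization or at 0.01, for 2 with arrays centred on their medians or with dim genes removed, and for 0 to 1 with 1 array left out. Diet with both creams averaged was called for 3, for 4 with arrays weighted by quality, for 2 with arrays centred on their medians, and for 1 with a trended robust prior, with the replicate number as a block, or at 0.01, and for 1 to 3 with 1 array left out. The counts of 0, 0 and 1 for HFD-IMQ against HFD-vehicle, HFD-IMQ against CD-IMQ, and imiquimod with both diets averaged did not change. The cause of these shifts was not tested.

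Replicate numbers were not taken to pair the mice, and the labels do not say what the numbers stand for. With the number as a replicate block, Clock in CD-IMQ against CD-vehicle was not called (adjusted p = 0.0617), nor were Ciart (0.0608) and Per1 (0.0593) for diet with both creams averaged, and the other counts kept their value. Over all genes, the share of calls that were higher in CD-IMQ against CD-vehicle was 35.8%, and 46.0% after a second quantile normalization. For the interaction it was 71.4%, against 58.6% after that normalization and 81.7% after centring. Calls over all genes for HFD-vehicle against CD-vehicle numbered 483, and 137 with only these 2 groups in the fit and 231 to 574 with 1 array left out. For the interaction they numbered 147, with 241 among genes above the median mean and 57 to 198 with 1 array left out. For diet with both creams averaged they numbered 91, with 44 under a trended robust prior and 47 to 132 with 1 array left out. For HFD-IMQ against CD-IMQ they numbered 0, with 0 to 20 when 1 array was left out. Npas2, with group means of 2.94 to 3.29, lay near the array medians, which limits its measurement.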

Other observations

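Of 9 temperature-responsive genes listed, 8 had a feature of their own. In HFD-vehicle against CD-vehicle skin 0 of the 8 were called, and their median difference was 0.16. In CD-IMQ against CD-vehicle skin Hspa1b, an inducible HSP70 gene, was higher (0.42 ± 0.14, adjusted p = 0.0472) and Hsp90aa1, the inducible HSP90 gene, was lower (-0.35 ± 0.10, adjusted p = 0.0271). The count of higher genes became 0 in 14 of the 20 fits without 1 array, and the count of lower genes became 0 without CD-IMQ 4 or 5 or CD-vehicle 1, 3 or 4. The lower count was also 0 after a second quantile normalization, and the higher count 0 with arrays centred on their medians. Among all genes 3.91% were called higher and 7.02% lower in CD-IMQ against CD-vehicle skin. With both diets averaged Hspa1a (-0.35 ± 0.11, adjusted p = 0.0498) and Hsp90aa1 (-0.34 ± 0.073, adjusted p = 0.00211) were lower with imiquimod. There 1 lower gene was called in 15 of the 20 fits without 1 array and with arrays centred on their medians. In the same comparison 1 gene was called higher after a second quantile normalization, and without HFD-vehicle 3 or HFD-IMQ 4. Over all genes 7.06% were called lower and 5.48% higher with both diets averaged. In HFD-IMQ against HFD-vehicle skin 0 of the 8 were called, where 3.65% of all genes were called higher and 2.24% lower. There 1 was called lower after a second quantile normalization, and without CD-vehicle 5 or HFD-vehicle 1.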
